A study of Mus musculus with 3 samples.

Results

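The 10 genes described here belong to the p53 pathway and the BCL2 family: Trp53, Mdm2, Mdm4, Cdkn1a, Ccng1, Bax, Bbc3, Bcl2l1, Bcl2l11 and Mcl1. They were chosen by name, with earlier results of these data known. Their poly(A) sites were taken as all listed sites on the gene's strand from the gene start to 1000 bases past the gene end in GENCODE M21. This gave 101 sites of the 178115 listed, in 10 of the 23178 genes with a listed site. The sites come from PAS-seq, a method that sequences RNA next to its poly(A) tail, so a read marks the end of a transcript whatever the transcript's length. The libraries were made from F121-9, an embryonic stem (ES) cell line that is a hybrid of the CAST and 129 mouse strains, untreated as far as the labels say. There was 1 group with biological replicates 1, 2 and 3, all at passage 14 and from 500 ng of RNA, and no contrast between conditions. Separate cultures are not named in the labels, and p-values measure the spread between these libraries, which may be technical.

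The transcription factor p53, encoded by Trp53, is stabilised by DNA damage and other stress and then switches on genes that stop the cell cycle or start apoptosis. Mdm2 and Mdm4 hold it in check, and Mdm2 is itself a p53 target. The BCL2 family decides whether the outer mitochondrial membrane is opened: guardians such as MCL1 and BCL-XL are opposed by the pore-forming BAX and by BH3-only proteins such as PUMA and BIM. Mouse ES cells are known for a short G1 phase and for undergoing apoptosis readily after DNA damage.

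Reads at listed sites numbered 10147672, 13513327 and 13040620 in replicates 1, 2 and 3. Replicate 3 had 0 reads at listed sites on X, Y and the mitochondrial genome. All 10 genes are autosomal, and levels are given in RPM (reads scaled to the library's total) as deposited and, where it matters, scaled to autosomal reads. Of 8 ES cell markers, 7 reached 10 RPM, led by Nanog at 723.7 ± 133.0 RPM (SD, n = 3), and Dppa5a was at 0.314 RPM. Of 8 fibroblast markers that feeder cells would carry, Thy1 reached 10 RPM, Dcn and Postn had no listed site, and the summed level was 81.4, 51.0 and 133.2 RPM in replicates 1, 2 and 3. Thy1 made up most of that sum, and the other 7 markers together had 0.0902, 2.09 and 10.3 RPM. No primitive endoderm marker of 6 reached 10 RPM, and their summed level was 1.71 to 5.33 RPM.

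The sequence before a poly(A) site normally carries a signal hexamer, most often AATAAA, which the cleavage machinery binds. The ends of Trp53, Bbc3 and Mcl1 are shown because these genes used several ends, that of Mdm4 because it lies far inside the annotated gene, and those of Cdkn1a and Mdm2 as examples of a gene with 1 dominant end. Each run is the 30 bases that end at the site, 5′ to 3′ on the gene's strand, from GRCm38 (mm10, strain C57BL/6J, and so not the CAST or 129 allele), and capitals mark AATAAA or ATTAAA.
Trp53 proximal, chr11:69591776-69591805, plus strand: catttatccaccccccaccctgtctccctc
Trp53 distal, chr11:69591843-69591872, plus strand: ctattttacAATAAAattttgttatcactt
Mdm4 main, chr1:132986221-132986250, minus strand: gtttttgtgtgATTAAAcagttttcatttc
Bbc3 proximal, chr7:16318124-16318153, plus strand: ttttctgtacatgtttggttaatttttttt
Bbc3 distal, chr7:16318174-16318203, plus strand: tccttttcAATAAAatcagattgaacagtg
Mcl1 proximal, chr3:95660986-95661015, plus strand: gctaacaagAATAAAtacatgggaaaagtg
Mcl1 middle, chr3:95661906-95661935, plus strand: tgtcAATAAAacaaatatgtatttcttgtc
Mcl1 distal, chr3:95663147-95663176, plus strand: tctgaagagaaAATAAAcctttttcccccc
Cdkn1a main, chr17:29100693-29100722, plus strand: ctggtgctcAATAAAtacttctcgatgatt
Mdm2 main, chr10:117688895-117688924, minus strand: tgcaAATAAAtggtttattgaagaattgtg
The proximal Trp53 site was the one main site with no hexamer of the 18 that the deposited lists name in its last 40 bases. The proximal Bbc3 site held AATGAA alone, just before the printed run, which ends in a stretch of T.

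All 10 genes had reads in every library, and the antiapoptotic guardian Mcl1 and the cell cycle inhibitor Cdkn1a stood highest. Their levels were the sum of RPM over a gene's sites. Mcl1 had 329.2, 356.0 and 396.5 RPM in replicates 1, 2 and 3, a mean of 360.5 ± 33.9 (SD, n = 3). Cdkn1a, which encodes the p53-induced kinase inhibitor p21, had 337.7, 327.2 and 403.0 RPM, a mean of 356.0 ± 41.1. The ranges of these genes overlapped, and both lay above the other 8 genes in every library. They stood at percentiles 98.3 and 98.2 of the 22330 autosomal genes with a listed site. In a bulk sample, a level cannot tell fewer cells with a transcript from less RNA per cell.

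Trp53, its inhibitors and Ccng1 lay in the middle of the order. Trp53 had 68.1, 77.1 and 106.9 RPM, a mean of 84.1 ± 20.3. Its inhibitor and ubiquitin ligase Mdm2 had 74.1, 50.4 and 80.3 RPM, a mean of 68.3 ± 15.8. Mdm4, the related inhibitor without strong ligase activity of its own, had 102.7, 101.8 and 104.7 RPM, a mean of 103.1 ± 1.47. Its coefficient of variation (SD over mean) was 1.42%, the smallest of the 10 genes, and 4.24% on autosomal reads, where Ccng1 and Mcl1 were close at 4.37% and 4.78%. The Mdm4 range overlapped that of Trp53, and the Trp53 range that of Mdm2, so these neighbours did not differ beyond their spread. Ccng1, a p53 target that encodes cyclin G1, had 113.3, 123.5 and 129.0 RPM, a mean of 122.0 ± 7.99. It lay above Mdm4 in all 3 libraries without overlap, by 1.18-fold.

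Among the apoptosis genes, the effector Bax was the highest after Mcl1 and the BH3-only gene Bcl2l11 by far the lowest. Bax had 100.2, 97.1 and 186.0 RPM, a mean of 127.8 ± 50.4. Bbc3, which encodes the p53-induced BH3-only protein PUMA, had 65.4, 57.6 and 41.5 RPM, a mean of 54.8 ± 12.2. Bcl2l1, the gene of BCL-XL, had 37.7, 38.6 and 62.9 RPM, a mean of 46.4 ± 14.3. Bax and Bcl2l1 were high in replicate 3 and close together in the other libraries, whereas Bbc3 was lowest in replicate 3. Bcl2l11, which encodes the BH3-only protein BIM, had 7.58, 2.69 and 10.2 RPM, a mean of 6.81 ± 3.80 that rested on 84, 40 and 143 reads. It lay 6.81-fold below Bcl2l1 with no overlap (12.6-fold at sites with reads in all 3 libraries, where its level was 3.69 RPM), and its coefficient of variation of 55.7% was the largest of the 10. Of the 9 pairs of neighbours in the order of levels, the ranges were apart in 3: Cdkn1a above Bax by 2.79-fold, Ccng1 above Mdm4, and Bcl2l1 above Bcl2l11.

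**Figure D1:**
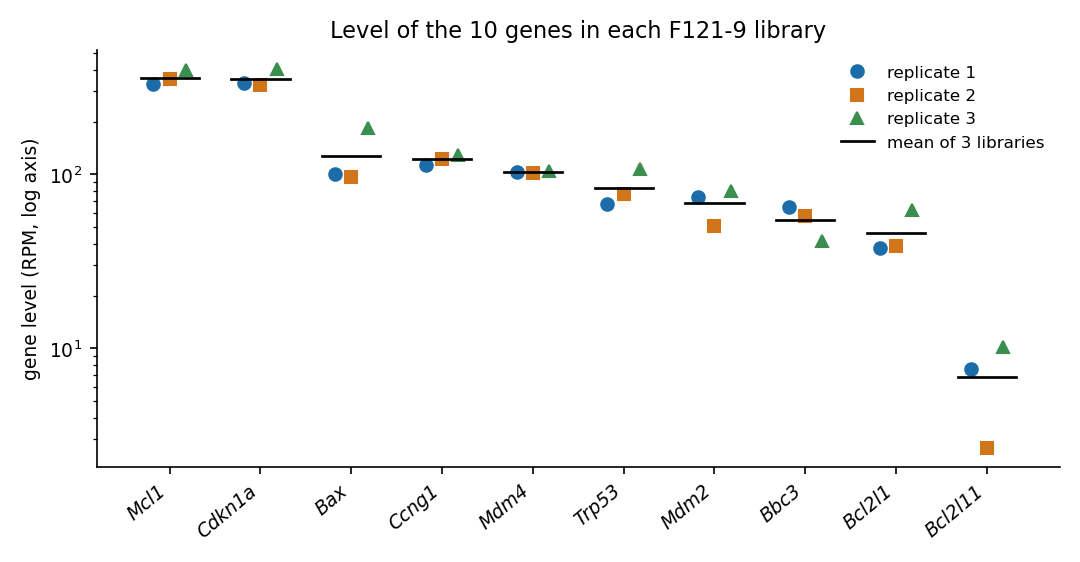
Level of each gene (RPM summed over its sites, log axis) in replicates 1, 2 and 3, with bars at the mean of 3 libraries. Mcl1 and Cdkn1a sit above 327 RPM in every library, Mdm4 lies at 101.8 to 104.7 RPM, and Bcl2l11 lies at 2.69 to 10.2 RPM.

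Replicate 3 gave the highest value for 9 of the 10 genes, Bbc3 being the exception, against 51.8% of the 8128 autosomal genes at 10 RPM or more. After scaling each library to its autosomal reads, 6 of the 10 were highest in replicate 3, against 36.2% of those genes. On that scale Bax was still apart, at 119.1, 115.4 and 200.6 RPM of autosomal reads. The summed fibroblast markers, with and without Thy1, were also highest in replicate 3, and their part in these levels was not tested.

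The 10 genes were set beside lists of other genes of the pathway. The 14 other BCL2 family genes had a median level of 4.52 RPM, and 4 of them reached 10 RPM. Bcl2l10, Bcl2a1a, Bcl2a1b and Bcl2a1d were without a listed site. The founding guardian Bcl2 was at 0.528 ± 0.654 RPM, below Mcl1 and Bcl2l1 in every library, while Bak1, the second pore-forming effector, was at 92.9 ± 22.0 RPM. The BH3-only genes Bad and Bid followed at 49.7 ± 19.2 and 36.6 ± 8.15 RPM.

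Of 20 other p53 targets, 13 reached 10 RPM and 4 reached 100 RPM, with a median of 24.9 RPM. The stress-response genes Ddit4 and Sesn2, both known as inhibitors of mTORC1 signalling, led at 256.2 ± 30.8 and 220.9 ± 21.2 RPM, followed by the RNA-binding protein gene Zmat3 at 140.2 ± 8.39 RPM. The lowest were Rrm2b, a ribonucleotide reductase subunit, at 0.818 ± 0.855 RPM, the death receptor gene Fas at 0.846 ± 1.13 RPM and the apoptosome gene Apaf1 at 2.67 ± 1.16 RPM. Of 12 other regulators of p53, including 2 relatives, 10 reached 10 RPM, with a median of 34.1 RPM. Cdkn2a, which encodes the MDM2 inhibitor ARF and the kinase inhibitor p16, led at 105.1 ± 11.7 RPM, before the acetyltransferase gene Ep300 at 94.4 ± 4.64 RPM and the checkpoint kinase gene Chek2 at 85.5 ± 22.7 RPM. The p53 relatives Trp63 and Trp73 were at 0.432 ± 0.611 and 5.25 ± 2.12 RPM, and the damage kinase gene Atm was at 12.5 ± 2.03 RPM. Over all autosomal genes with a listed site, 36.4% reached 10 RPM and the median was 2.95 RPM. The median of the 10 genes was 93.6 RPM, and 9 of them reached 10 RPM. Among the 12190 autosomal protein-coding genes at 1 RPM or more, Bcl2l11 stood at percentile 28.9. The other 9 stood at percentiles 71.4 (Bcl2l1) to 97.2 (Mcl1).

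**Figure D2:**
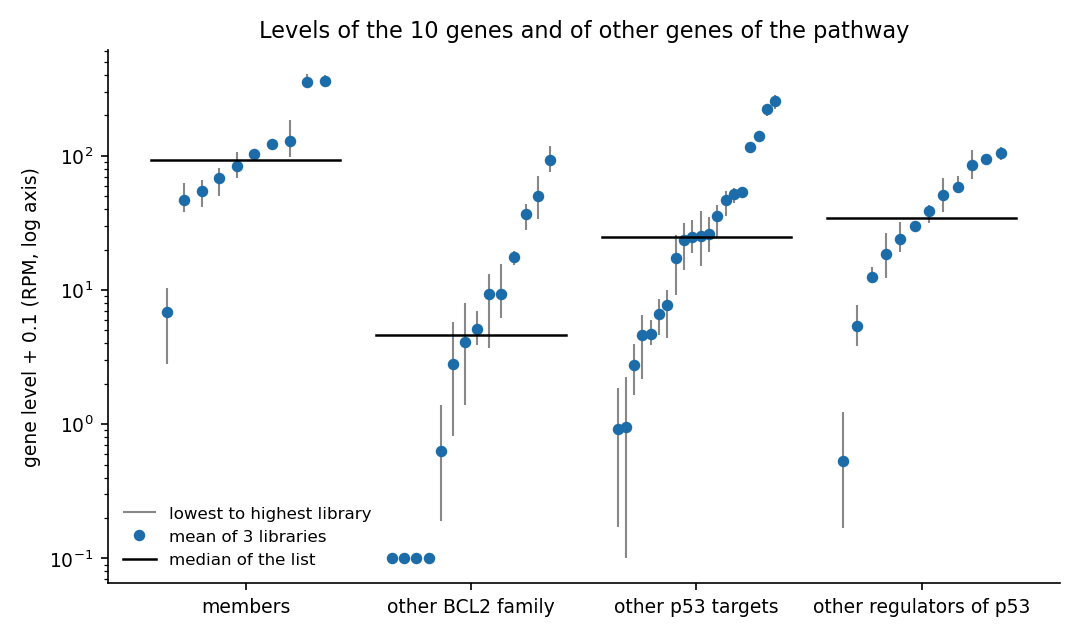
Level of each gene in the 4 lists (mean RPM of 3 libraries plus 0.1, log axis; vertical lines run from the lowest to the highest library and bars mark list medians). The medians are 93.6, 4.52, 24.9 and 34.1 RPM, and the 4 BCL2 family genes with no listed site lie at the floor.

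The pooled reads of the 10 genes lay almost wholly in terminal exons. Terminal exons held 98.2% ± 0.325 of these reads (SD, n = 3), introns 1.53% ± 0.251, other exons 0.254% ± 0.192 and the 1000 bases downstream 0.0630% ± 0.0566. The pool weighs each gene by its reads, so Mcl1 and Cdkn1a count most. By gene, the terminal-exon share was lowest in Mdm4, at 83.8% ± 0.406, with 15.7% ± 0.820 in introns. Over all autosomal genes, terminal exons and downstream sites together held 94.5% ± 0.353 and introns 3.82% ± 0.200. Of the 101 sites, 60 lay in a terminal exon, 31 in an intron, 7 in another exon and 3 downstream. Of all sites, 19 held at least 5% of their gene's reads on average over the libraries. Reads were seen in all 3 libraries at 34 sites, which held 98.7% ± 0.394 of the reads, and in 1 library at 54 sites.

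The most used site carried AATAAA in 8 of the 10 genes, against 64.0% of the 13733 autosomal genes at 1 RPM or more. It lay within 10 bases of an annotated transcript end in 9 of 10, against 61.9%. At least 90% of reads fell on 1 site in 4 of 10 genes, against 42.5%. The median share at the most used site was 85.8%, against 84.9%. In these comparisons, a site that several genes claim counted for each of them. No test was made of these shares.

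The genes with a single dominant end were Bcl2l1, Bax, Cdkn1a and Mdm2. Bcl2l1 had 37.6, 38.6 and 62.8 RPM at chr2:152780670 on the minus strand, which was 99.9% ± 0.120 of its reads and gave a 3′ UTR of 1475 bases. Bax had 97.7, 96.3 and 183.2 RPM at chr7:45461702 on the minus strand, 98.4% ± 0.816 of its reads, with a UTR of 160 bases. The higher level of Bax in replicate 3 therefore lay at its main site. Cdkn1a had 325.7, 320.3 and 391.6 RPM at chr17:29100722, 97.2% ± 0.704 of its reads, with a UTR of 1329 bases. A minor Cdkn1a site at 29099520 had 10.6, 5.59 and 10.7 RPM, 2.49% ± 0.721 of reads, and would leave 127 bases of UTR. Mdm2 had 72.5, 49.0 and 76.2 RPM at chr10:117688895 on the minus strand, 96.7% ± 1.55 of its reads, with a UTR of 1315 bases.

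Ccng1 ended mainly at chr11:40748554 on the minus strand, with 89.9, 110.3 and 114.5 RPM, or 85.8% ± 5.57 of its reads and a UTR of 2314 bases. The other 16 Ccng1 sites each held under 5% on average over the libraries. The largest of them, at 40749176, had 9.74, 4.51 and 2.35 RPM, or 8.60%, 3.65% and 1.82% of reads, and carried AATAAA. The share of the main Ccng1 site was lowest in replicate 1, where this upstream site was highest.

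**Figure D3:**
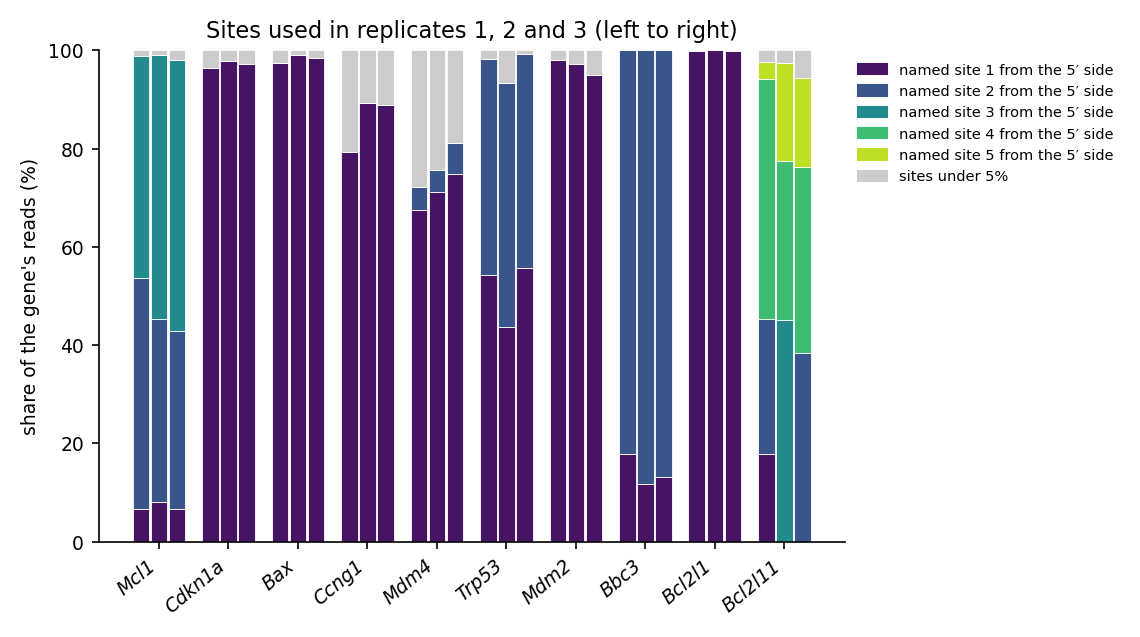
Share of each gene's reads (%) at its sites of at least 5%, counted from the 5′ side, in replicates 1, 2 and 3 from left to right, with grey for all smaller sites. Single blocks fill most of the Bcl2l1, Bax, Cdkn1a and Mdm2 bars, Trp53 divides nearly evenly, and the Bcl2l11 bars differ from library to library.

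Trp53 divided its reads nearly evenly between 2 ends 67 bases apart, the pair printed above with and without a hexamer. The proximal site had 37.0, 33.7 and 59.4 RPM, 51.2% ± 6.51 of the gene's reads, and the distal site, which is the annotated transcript end, had 29.9, 38.3 and 46.6 RPM, 45.7% ± 3.41. The proximal site was the higher in replicates 1 and 3 and the lower in replicate 2. The resulting UTRs are 374 and 441 bases long, so most of the UTR is shared. Only 1 of the 20 bases after the proximal site is A, and it was therefore not A-rich by the limits used for internal priming (12 A or a run of 6). Another site, in an intron at chr11:69583826 and with AATAAA, had 1.17, 4.64 and 0.498 RPM, 2.74% ± 2.91 of reads, and was highest in replicate 2. The processed pseudogene Trp53-ps had no listed site.

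Mcl1 used 3 ends, all with AATAAA. The proximal end had 21.9, 29.0 and 25.9 RPM, the middle end 154.4, 132.3 and 144.4 RPM, and the distal end 149.3, 191.0 and 218.1 RPM. Their shares were 7.11% ± 0.901, 40.2% ± 5.85 and 51.3% ± 5.22, and their UTRs 192, 1112 and 2353 bases. The middle end was the higher of the 2 large ones in replicate 1 and the lower in replicates 2 and 3.

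Mdm4 ended mainly far inside its annotated gene. Its main site at chr1:132986221 on the minus strand, with ATTAAA and 1 base from the end of a protein-coding transcript, had 69.4, 72.5 and 78.3 RPM, 71.2% ± 3.64 of reads. This end has a UTR of 5435 bases and lies 26737 bases before the annotated gene end at 132959484. The last exon of the transcript that reaches the gene end held 0 listed sites. The most 3′ listed site was at 132979805, still 20321 bases before the gene end. Past the exon of the main site, 5 intronic sites together held 10.9% ± 0.181 of reads, the largest at 132986105 with 4.78, 4.51 and 6.61 RPM and ATTAAA. Another 9 intronic sites lay upstream and held 4.88%. Introns held 15.7% ± 0.820 of Mdm4 reads in all, the highest share of the 10 genes. The pseudogene Mdm4-ps on X had 1 listed site, at 0.202 RPM in replicate 2.

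Bbc3 had 2 listed sites, 50 bases apart. The distal one, with AATAAA, had 53.8, 50.8 and 36.0 RPM, 85.7% ± 3.13 of reads, and the proximal one had 11.6, 6.80 and 5.47 RPM, 14.3% ± 3.13. The distal site was the higher in every library, and the UTRs are 969 and 919 bases.

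Bcl2l11 spread its few reads over 5 sites of at least 5%. The largest, at chr2:128160960 with AATAAA, had 3.70, 0.875 and 3.84 RPM, 39.7% ± 8.32 of reads, and gave a UTR of 1928 bases. Its share was 74.2% ± 16.7 when only sites with reads in all 3 libraries were counted. An alternative last exon, with its end at 128131494, had 2.07, 0 and 3.91 RPM, where the 0 reads of replicate 2 allow a share of up to 7.5% (3 reads, counting error only). The distal end at 128162546 had 0.271, 0.539 and 1.85 RPM, and the sites at 128158615 and 128127812 had reads in 1 library each. The site at 128160960 was the highest in replicate 1, with 41 reads, and that at 128158615 in replicate 2, with 18 reads. In replicate 3 the sites at 128131494 and 128160960 were nearly level, with 55 and 54 reads. Each library had 40 to 143 reads of the gene.

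**Figure D4:**
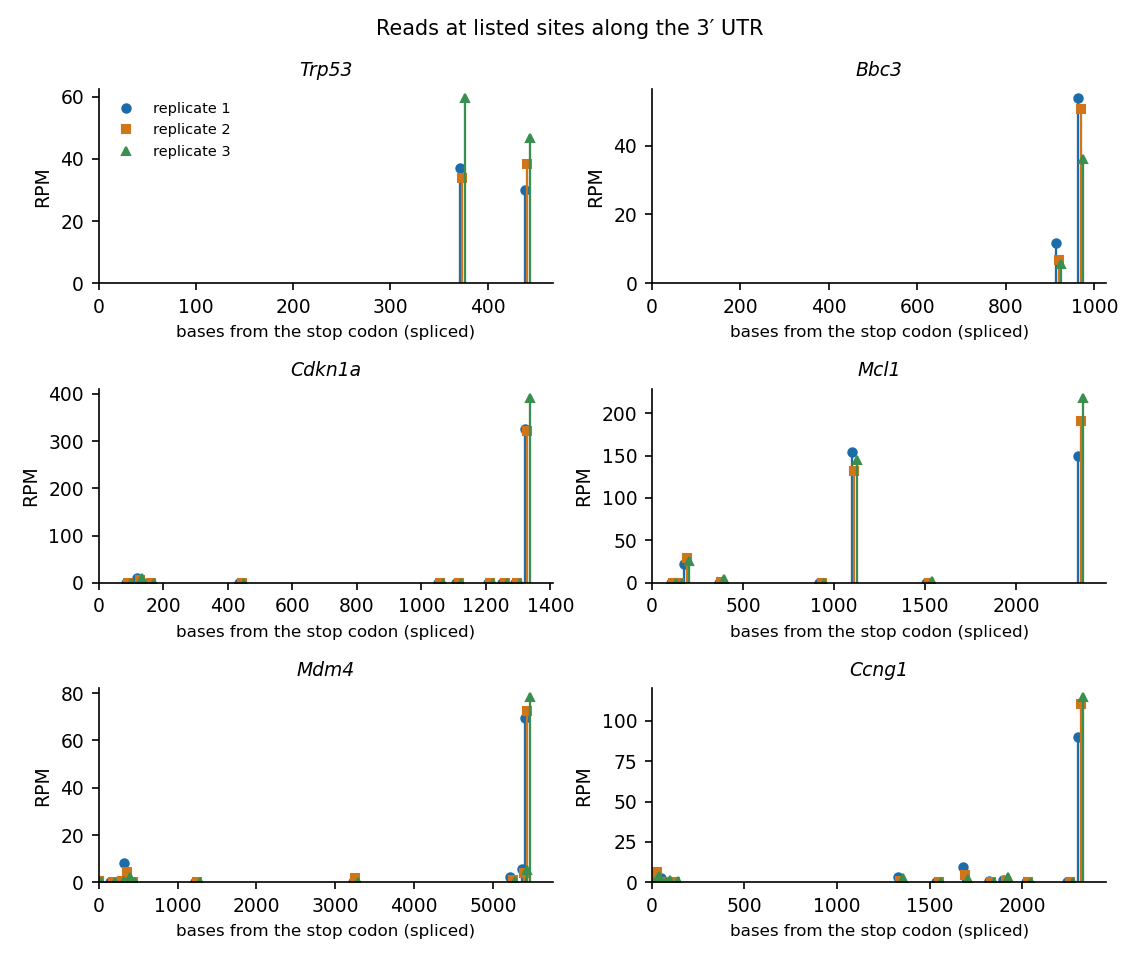
RPM at each listed site along the 3′ UTR of 6 genes, in spliced bases from the stop codon, with replicates 1, 2 and 3 drawn side by side. Mcl1 shows 3 ends at 192, 1112 and 2353 bases, Trp53 shows 2 close ends, and Cdkn1a, Mdm4 and Ccng1 have small sites upstream of a main end.

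Whether a gene favoured its longer or its shorter end was tested as the log2 ratio of the most distal to the most proximal terminal-exon site with at least 5% of terminal-exon reads. The pair was picked from the same reads, so the ratio compares the outermost sites that passed this minimum, which need not be the most used. limma was fitted to log2((distal RPM + 0.05)/(proximal RPM + 0.05)) in the 3 libraries over 5432 autosomal genes with at least 50 reads, with p-values adjusted after Benjamini-Hochberg over all of them. A call needed an adjusted value under 0.05 and a ratio of 2-fold or more. Of all genes, 15.8% were called distal and 5.85% proximal, and the median log2 ratio was 1.38. Mdm2, Cdkn1a, Ccng1, Bax and Bcl2l1 had 1 end site at this minimum and were not tested. Of the other 5 genes, Mdm4, Mcl1 and Bbc3 were called distal and 0 were called proximal, also with 0 proximal at an unadjusted p under 0.05 and in edgeR. The proximal ends of Mdm4 and Mcl1 held 4.67% and 7.11% of their gene's reads. With an end site minimum of 10%, Mdm4 had no pair to test. The Mcl1 pair was then its middle and distal ends, with a log2 ratio of 0.36 (limma adjusted p = 0.520). Bbc3 kept its ratio of 2.60 but not its call (limma adjusted p = 0.0804).

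Mdm4 had log2 ratios of 3.10, 4.06 and 5.21 between ends 5076 bases apart, a mean of 4.12 (SE 0.61, limma adjusted p = 0.0428). Mcl1 had 2.77, 2.72 and 3.07 between its outer ends, a mean of 2.85 (SE 0.41, limma adjusted p = 0.0428). Bbc3 had 2.20, 2.89 and 2.71, a mean of 2.60 (SE 0.43, limma adjusted p = 0.0432). All 3 libraries favoured the distal end in each of these genes, with 93.8% ± 3.93, 87.8% ± 1.39 and 85.7% ± 3.13 of the pair's reads there. Over all genes tested, 3792 of 5432 likewise had the same direction in all 3 libraries. Trp53 and Bcl2l11 did not. The smallest adjusted p that limma gave for any gene was 0.0428, so these 3 calls lay close to the threshold. Leaving out any 1 library ended all 3 (limma adjusted p 0.132 to 0.200). With a library left out, limma called 0 of all genes tested, so this loss was not particular to the 3 genes. The ratios then stayed at 2.74 to 2.92 for Mcl1 and 2.46 to 2.80 for Bbc3. The Mdm4 ratio was 4.16 without replicate 2 and 3.58 without replicate 3. Without replicate 1, the proximal Mdm4 site no longer reached the 5% minimum. The Mdm4 pair was then another one, 38 bases apart, with a ratio of 4.06. On the recovered reads, the edgeR quasi-likelihood test gave adjusted p-values of 4.18e-06 for Mdm4, 2.9e-07 for Mcl1 and 6.43e-05 for Bbc3, with 25.6% of all genes called distal and 10.3% proximal.

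Trp53 was not called. Its log2 ratios were -0.30, 0.18 and -0.35, a mean of -0.16 with a 95% confidence interval of -1.39 to 1.08 (limma adjusted p = 0.786), and the distal end held 47.3% ± 5.12 of the pair's reads. The interval leaves room for more than a 2-fold preference either way. Bcl2l11 gave -2.73 and -1.06 in replicates 1 and 3. In replicate 2 its distal end had 8 reads and its proximal end 0, at least 2.67-fold more against a floor of 3 reads, so its libraries did not share a direction. The fitted mean of -0.08, with an interval of -4.35 to 4.20 (limma adjusted p = 0.975), depends on the pseudocount for that library and was -0.53 with 0.5 RPM. For Mcl1, the middle and distal ends alone gave a log2 ratio of 0.36 (limma adjusted p = 0.526), with 49.2%, 59.1% and 60.2% of the pair's reads at the distal end. The distal call of Mcl1 was made against the proximal end, with its UTR of 192 bases.

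**Figure D5:**
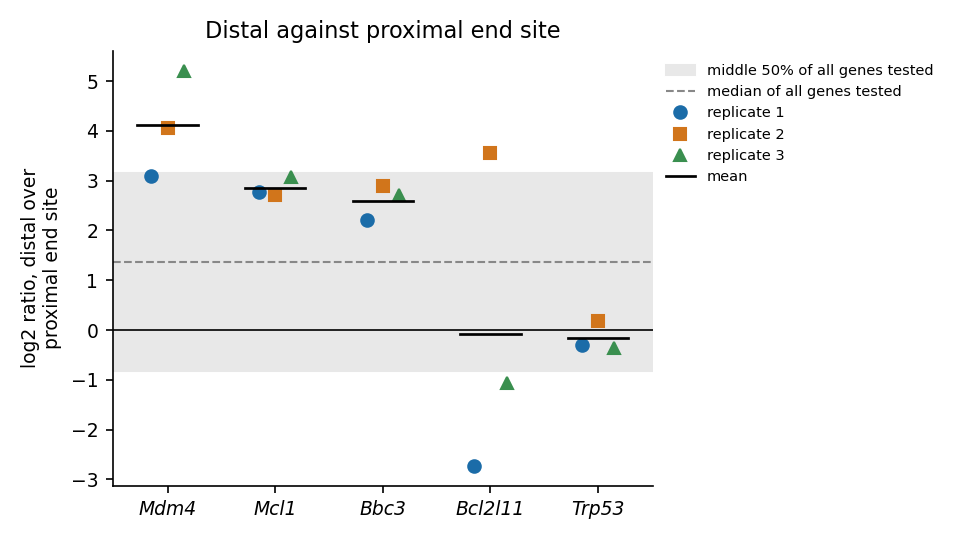
log2 ratio of distal to proximal end site in each library for the 5 genes tested, with bars at the mean, the grey band for the middle 50% of all 5432 genes and a dashed line at their median of 1.38. Mdm4, Mcl1 and Bbc3 lie above 2 in every library, Trp53 lies near 0, and the Bcl2l11 libraries lie on both sides of 0, with the size of the replicate 2 point set by the pseudocount, since its proximal end had 0 reads.

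Of the 20 other p53 targets, 10 were tested, 2 were called distal by limma (15.8% of all genes) and 0 proximal (5.85% of all genes). They were Trp53inp1, with 89.6% ± 5.94 of the pair's reads at the distal end, and Zmat3, with 81.6% ± 0.943. By edgeR 4 were called distal (25.6% of all genes), adding Btg2 and Tigar, and 0 proximal. Of the other BCL2 family genes 2 were tested and of the regulators 4, and neither limma nor edgeR called any of these 6 in either direction.

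A longer UTR holds more possible binding sites, and the seeds of 8 microRNAs were searched in the UTRs of the ends above. The microRNAs themselves were not measured here, and a match is a run of letters in the reference, not a site shown to act. The miR-290 cluster is abundant in mouse ES cells, and its members that share a seed with miR-291a-3p are known to target Cdkn1a there. The mature sequence (RefSeq, GRCm38.p6, seed in capitals) and the matches to bases 2 to 8 of it in Cdkn1a (AGCACTT in capitals, sense strand, chr17, plus strand) are printed because the minor Cdkn1a end lies upstream of both.
mmu-miR-291a-3p: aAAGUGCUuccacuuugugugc
Cdkn1a match 1, chr17:29099813-29099842: tcctcagacctgaatAGCACTTtggaaaaa
Cdkn1a match 2, chr17:29100485-29100514: taccgtgggtgtcaaAGCACTTagtgggtc
The matches start at bases 435 and 1107 of the 1329-base UTR that carried 97.2% of reads, and neither lies in the 127 bases left by the minor end. For comparison, UTRs of autosomal protein-coding genes at 10 RPM or more were used, up to each gene's most used site. Where such a UTR was at least as long, its last bases made a window of the same length. AGCACTT was found in 15.9% of 1744 UTR windows of the same length. It overlaps the match of miR-17-5p, GCACTTT, at match 1. The same Cdkn1a UTR held matches of miR-16-5p at base 696 and miR-29a-3p at base 1301. Of the 1744 windows, 14.4%, 23.3% and 13.3% held a match of miR-17-5p, miR-16-5p and miR-29a-3p.

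The 3 ends of Mcl1 differed in what they held. A match of miR-92a-3p (GTGCAAT) at base 9 lay in all 3 UTRs. A match of miR-29a-3p (TGGTGCT), whose family is known to target MCL1 in human cells, started at base 1036 and so lay in the UTRs of 1112 and 2353 bases but not in that of 192 bases. It sat 70 bases before the middle site, and 11.6% of 2125 windows of 1112 bases held such a match. The match of miR-291a-3p at base 1819 lay in the 2353-base UTR alone, and 27.5% of 761 windows of that length held one. Matches of miR-17-5p at base 1820 and miR-125a-5p at base 2158 also lay in that UTR alone, with 23.4% and 21.2% of the windows.
mmu-miR-29a-3p: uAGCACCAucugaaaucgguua
Mcl1 match of miR-29a-3p, chr3:95661844-95661873, plus strand: ctagagtcttaaccaTGGTGCTattcactg
Mcl1 match of miR-291a-3p, chr3:95662627-95662656, plus strand: ctcttcggacttcagAGCACTTtatgtagt

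The miR-17-92 cluster is known to target Bcl2l11 in mouse lymphocytes, and its members miR-17-5p, miR-19b-3p and miR-92a-3p were searched. The 1796-base UTR of the alternative last exon had a match of miR-17-5p at base 27 and, outside the cluster, of miR-16-5p at base 1306. Of 1150 windows of that length, 19.4% and 28.5% held matches of these. The 1928-base UTR, which held the largest mean share of Bcl2l11 reads, had 1 match of miR-17-5p, at base 1449. Among 1048 windows of that length, 20.3% held one. Outside this cluster, the same UTR had matches of miR-291a-3p at bases 1251 and 1448, the second overlapping that of miR-17-5p. It also had a match of miR-29a-3p at base 84. Of the 1048 windows, 24.0% and 19.8% held matches of these. The 4217-base UTR of the distal end had all matches of the 1928-base UTR. It also had matches of miR-17-5p at base 2123, miR-291a-3p at base 2122, miR-19b-3p at base 4078 and miR-92a-3p at bases 2845 and 4120. Among 204 windows of 4217 bases, 43.1% held a match of miR-17-5p, 29.4% of miR-19b-3p and 20.1% of miR-92a-3p. The last of these matches is printed because it lies 91 bases before the distal site, which had 0.271 to 1.85 RPM.
mmu-miR-92a-3p: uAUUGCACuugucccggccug
Bcl2l11 match of miR-92a-3p, chr2:128162434-128162463, plus strand: attgccactgtacctGTGCAATactgctgt

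In Bax, a match of miR-34a-5p, a microRNA known to be induced by p53, started at base 8 of the 160-base UTR, and 1.91% of 5651 windows of 160 bases held one. Bbc3 held 2 matches of miR-29a-3p, at bases 316 and 401, in the UTRs of both its ends. For its distal end, 10.2% of 2405 windows held one. Ccng1 held 1 match each of miR-291a-3p, miR-17-5p, miR-16-5p and miR-125a-5p in its 2314-base UTR. Of 785 windows, 27.5%, 23.4%, 35.2% and 21.3% held matches of these. The 5435-base UTR of Mdm4 held 1 match of miR-34a-5p, at base 3544, 1 of miR-92a-3p and 2 of miR-19b-3p. Of 80 windows of that length, 46.2%, 27.5% and 35% held matches of these. Trp53, Mdm2 and Bcl2l1 held 0 matches of the 8 microRNAs.

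The pentamer ATTTA, the core of AU-rich elements that mark short-lived transcripts, was also counted. Mdm2 held 8 in its 1315-base UTR, where the median of 1765 windows of that length was 2 and 0.963% held more. Mcl1 held 1, 5 and 8 in its UTRs of 192, 1112 and 2353 bases (window medians 0, 2 and 4). Ccng1 held 8 (median 4), and Mdm4 held 11 in its 5435-base UTR (median 11). Bax held 0 (median 0), Bbc3 held 0 in both UTRs (medians 1 and 2), and Cdkn1a held 3 (median 2). Trp53 held 1 in each UTR (median 1) and Bcl2l1 held 1 (median 2). The Bcl2l11 UTRs held 0 to 6, at or below their medians.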

How the data were processed

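PAS-seq was run on 3 F121-9 libraries. Each deposited list gives a site's RPM in the library, the fraction of libraries with a read there, the RPM averaged over libraries, a region code and signal hexamers. The files have no header line, so units were read from the values. Reads had been aligned to mm10 and annotated with GENCODE M21, per the labels' text files. Not given in the sources used here are the aligner, the caller of sites and how reads with several places were treated.

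Whole reads were recovered from the RPM steps (100% of values within 0.01 of a whole read), with 11085428, 14855484 and 14064461 reads in the denominators of replicates 1, 2 and 3. Reads may not be independent molecules, so counting limits cover counting error only. Sites that several genes claim were assigned to a single gene for the region shares over all genes and for the distal to proximal ratios. Protein-coding genes came first, then terminal exon, other exon, intron and the 1000 bases downstream, then the nearest transcript end. In these, 78 tied sites were left out. For gene levels, percentiles and most used sites, a site counted for every gene whose region held it. Most reads counted as downstream over all genes lay at sites with the deposited code TE, just past the annotated end. Taking the region before the gene type was also run, after the calls of the first order were known.

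Ratios were tested with limma 3.58.1 (R 4.3.3), ordinary empirical Bayes, and by edgeR 4.0.16 on recovered reads. A simulation of this comparison had 5432 genes, 5232 of them with equal sites. In it, limma called 38 of 100 genes with a 4-fold ratio, 99 of 100 with a 16-fold ratio and 2 of the 5232. In the data, limma gave an unadjusted p under 0.05 for 2715 of 5432 genes. The mix of equal and unequal sites was thus not that of the simulation, and whether its rates hold for the data was not tested. Signals searched on the sense strand were the 18 hexamers that the deposited lists name, AATAAA and ATTAAA among them. All 188866 deposited hexamers compared were found in GRCm38. Every gene of the set was named, with each site of at least 5% of its reads; of the other lists, the called genes and the 3 highest and 3 lowest. Members and lists were chosen with earlier results of these data known.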

Additional observations from a re-analysis of the deposited data

How the results depend on the processing

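The calls of the distal to proximal ratio depended on the settings. Most levels and shares moved by less than 1 SD over the libraries (59 of 66 and 52 of 55). These counts include settings with 1 library left out. Leaving out 1 of 3 libraries cannot move a single gene's mean by 1 SD, so those values could not have counted as moved. limma called 1174 of 5432 genes. It called 0 genes with an end site minimum of 10% (1605 at an unadjusted p under 0.05), 0 with no minimum of reads (2699) and 0 with ends at least 100 bases apart (2369). It called 0 to 0 when 1 library was left out (1265 to 1746 unadjusted). It called 3992 of 7308 genes with a minimum of 1%, 2770 of 5432 with a pseudocount of 0.5 RPM, 1894 of 2944 with at least 500 reads and 5512 of 8835 between the 2 most used sites. Of the 5432, the calls were 1954 by edgeR and 2455 by limma with a trend in the prior, an alternative chosen after seeing the data. Of the 10 genes, limma called 3 of 5 tested distal. It called 0 with a minimum of 10%, no minimum of reads or ends 100 bases apart (1, 3 and 2 unadjusted). With 1 library left out it called 0 to 0 (3 to 4 unadjusted). It called 6 of 8 tested distal with a minimum of 1%, and 6 of 9 between the 2 most used sites. At these last settings most of all genes tested were called too, in either direction, and their distal share is not given here. Assigning sites by region before gene type, tried after the calls were known, gave 1170 genes and the same 3 members. The Bcl2l11 ratio of -0.08 turned to 1.67 between its 2 most used sites and ranged from -1.89 to 1.25 with 1 library left out. It was 1.25 without replicate 1 and 0.41 without replicate 3. At sites with reads in all 3 libraries alone, the Bcl2l11 level went from 6.81 to 3.69 RPM and its share at the most used site from 39.7% to 74.2%. The median level of 93.6 RPM became 107.3 on autosomal reads. Of 66 recomputed ratios of single genes, 3 reversed, all of Bcl2l11, and 17 lost their call, all of Mdm4, Mcl1 or Bbc3. Except for Mcl1 between its 2 most used sites, these losses fell in settings where limma called 0 of all genes. The 66 include ratios of Trp53 and Bcl2l11, which had no call to lose. They leave out settings in which a gene was not tested, as Mdm4 with a minimum of 10% and Bbc3 with ends at least 100 bases apart. The cause of these changes was not tested. No paired analysis was possible because the series holds 1 group. Depth limits Bcl2l11 most, at 40 to 143 reads.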
